A study of Homo sapiens with 7 samples.

Results

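The inner 5' UTR is the part of a messenger RNA's leader that lies at least 200 nt from the transcript start and before the start codon. Peaks of N6-methyladenosine (m6A) in it were taken from the deposited table of untreated HepG2 cells, in which most peaks have a segment of the transcript, by keeping those whose segment is UTR5. There were 346 such peaks of 12769 in all (2.78% of the 12424 peaks with a segment, 95% Wilson interval 2.51 to 3.09%). They lay in 322 transcripts of 320 genes, all listed as coding, of 6990 coding transcripts with any peak. Coding is the table's own label, and some members, such as BC160930 and AK126420, are cDNA clone records. SLC1A3, a glutamate transporter, was listed in 2 transcripts with the same peak (position 314, score 3.41), which counts as 2 members. TBC1D10B was also listed in 2 transcripts, with peaks at position 595 (score 5.32) and, in the shorter, at 219 (3.58).

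The series held 4 libraries immunoprecipitated with an anti-m6A antibody and 3 input libraries without antibody, all from HepG2, an established line of human hepatocellular carcinoma, with no treatment. The labels gave no separate cultures. Poly(A)-selected RNA had been cut into fragments of about 100 nt before precipitation. All 7 libraries share a single table with no value per library, so depth is unknown, and neither replicate error nor a test of IP against input could be computed. The intervals given here cover counting error only, and peaks of 1 transcript are not independent. Of 20 hepatocyte markers, 10 were at the lowest expression quantile of the table (0.314), ALB, AFP, TTR and SERPINA1 among them. HNF4A was at 0.509, and CPS1, a urea cycle enzyme, at 0.990. The expression quantile is the authors' rank of a transcript, from 0 to 1. HepG2 cells are known to express ALB, AFP, TTR and SERPINA1, so these values go against the label or the expression column; the reason was not tested, and every statement on expression here rests on that column.

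m6A is written by the METTL3 and METTL14 complex on adenosines in a short consensus, RRACH, where R stands for either purine and H for any base but G. It is read by YTH domain proteins. Long internal exons and the neighbourhood of stop codons carry most of it. Marks in the 5' UTR have been studied for their part in translation that does not need the cap-binding complex, above all in stressed cells. A different methylated base, N6,2'-O-dimethyladenosine, can be the first transcribed base, and anti-m6A antibodies can bind it too.

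The table gives positions along transcripts and no sequence. Sequences were therefore read from GENCODE release 29 transcripts with the same gene, chromosome, strand and length of genomic span, in which every peak lay in an exon of the listed number and length. This whole-span set held 31 inner 5' UTR peaks of 28 transcripts, which is 8.96% of the members. A wider set of 96 peaks in 90 transcripts (27.7%) also took spans within 10 nt and, for peaks in exon 1, transcripts with an exon 1 of the listed length. It leaned to exon 1 (84 of 97 peaks before 1 was left out for its segment) and was defined after the data were seen. The median score was 2.92 in the whole-span set and 3.04 in the wider set, against 2.99 for all members.

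The 11 sites that follow come from the highest-scoring peaks of the whole-span set that had RRACH within 50 nt. Their peak scores run from 5.76 (C4orf30) down to 3.02 (SLC35A4). The lowest are thus close to the median of all members, 2.99, and below that of all peaks, 3.15. Each is the RRACH nearest to the listed position with 12 nt on either side, read 5' to 3' along the transcript, with T for U and the motif in capitals. Coordinates are those of the printed bases in GRCh38, and every site lies in an exon, upstream of the start codon.
C4orf30 (chr4:17804447-17804475, minus strand): ttgcctagatgaGGACCccttctattctt
ST3GAL2 (chr16:70398760-70398788, minus strand): ctagtgacggagAGACCcgatgaagccct
DHX32 (chr10:125880917-125880945, minus strand): tcttagagattgGAACAtacgggtttgta
KIAA1826 (chr11:106022029-106022057, minus strand): tgcgacgtagcgGGACTgcacgctcggga
NRP2 (chr2:205683171-205683199, plus strand): gctgaccattagAAACCtctgcataagac
RAB17 (chr2:237590829-237590857, minus strand): ccaggaaatgcaGGACTggaatgtgactt
BCAN (chr1:156642181-156642209, plus strand): gctgcagctgcaGGACTgagccgtgcacc
KIAA0494 (chr1:46718597-46718625, minus strand): cctgcaaggaagGGACTgacgcgttccca
HTR1D (chr1:23194265-23194293, minus strand): gctctgttgtcaGGACAaccttgaaggaa
BRD2 (chr6:32972828-32972856, plus strand): gggcggtgagggGAACCgaggccacccgg
SLC35A4 (chr5:140566704-140566732, plus strand): ccaacgtggagaAGACAttaagggactat

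In 4 of these sites the nearest motif was GGACU, the pentamer most used by the m6A writers. The highest-scoring site belonged to C4orf30, a gene the table calls a hypothetical protein. Its motif, GGACC, lay 2 nt downstream of the peak position 740 and 322 nt was left to the start codon (score 5.76, exon 3, expression quantile 0.697). ST3GAL2, a Golgi sialyltransferase, gave the next, AGACC, 26 nt downstream of its peak at transcript position 874, in exon 2 (5.34). In DHX32, a DEAH-box helicase family member, the motif GAACA lay 3 nt from the peak (4.26). In HTR1D, a serotonin receptor, GGACA lay 1 nt from a peak of 3.19. The site of BRD2, a bromodomain reader of acetylated histones, was the deepest of the 11 in a leader, at position 1645 of a 1701 nt 5' UTR, with the peak 60 nt before the start codon.

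RRACH lay near most inner 5' UTR peaks. In the whole-span set, 28 of 31 peaks had it within 50 nt (90.3%, 75.1 to 96.7%), against 72.4% of the other positions of the same 5' UTR segments. In the wider set 78 of 96 had it (81.3%, 72.3 to 87.8%), against 69.2%. With spans allowed to differ by up to 10 nt it was 40 of 50 (80.0%, 67.0 to 88.8%), against 67.6%, which lies inside that interval. For DRACH, where U may also come first, the shares were 90.3% against 81.3% and 82.3% against 77.5%, both within the counting interval of the peaks. The nearest RRACH was a median of 15 nt away in the whole-span set (quartiles 3.5 and 29 nt) and 18 nt in the wider set.

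GGACU was more frequent near the peaks than elsewhere in their segments. It lay within 50 nt of 16 of 31 peaks (51.6%, 34.8 to 68.0%), against 19.0% of other positions in the same segments, and of 33 of 96 peaks in the wider set (34.4%, 25.6 to 44.3%), against 18.6%. In transcripts matched by whole span, 14 of 121 peaks at the transcript start had it (11.6%, 7.02 to 18.5%), an interval that does not meet that of the inner 5' UTR. Among 534 coding sequence peaks 170 did (31.8%, 28.0 to 35.9%), which overlaps the inner 5' UTR interval. The density of GGACU within 50 nt of the peaks was 2.66 times that of the whole segments in the whole-span set and 2.17 times in the wider set. GGACC was at 1.66 times in the wider set and 1.32 in the whole-span set, and GGACA at 1.59 and 1.07. Other pentamers reached like ratios in 1 of the sets, GAACA 2.58 in the whole-span set on 5 sites (1.49 in the wider set), AAACU 1.98 on 5 sites (1.03) and AGACU 1.57 in the wider set on 19 sites (1.29 in the whole-span set). These ratios rest on few sites, 16 and 38 of GGACU in the 2 sets. Their windows were not cut at the segment ends, so some take in sequence outside the segments.

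**Figure D1:**
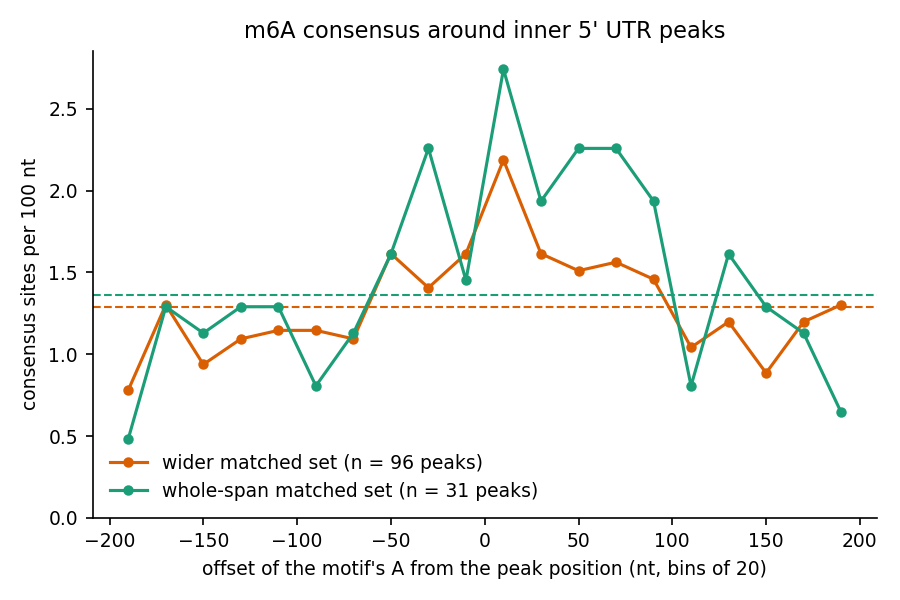
The plot gives consensus (RRACH) sites per 100 nt, on the y axis, in 20 nt bins of the offset of the motif's A from the listed peak position in nt, on the x axis, for the whole-span (n = 31) and wider (n = 96) matched sets, with dashed lines at the mean density of the same 5' UTR segments. Both sets are highest in the bin from 0 to 20 nt downstream, at 2.74 and 2.19 sites per 100 nt against segment levels of 1.36 and 1.29, and sink below the dashed lines beyond 100 nt in most bins. Bins are not cut at the segment ends, and the dashed lines cover the segments alone.

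Motif density was highest just downstream of the listed position, in the bin centred at 10 nt, where 15 of 31 and 37 of 96 peaks had a site. It stayed above the segment level up to the bin centred at 90 nt downstream. On the upstream side the bins centred at 70 nt and farther were at or below it, apart from 1.30 against 1.29 sites per 100 nt in the wider set at 170 nt.

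**Figure D2:**
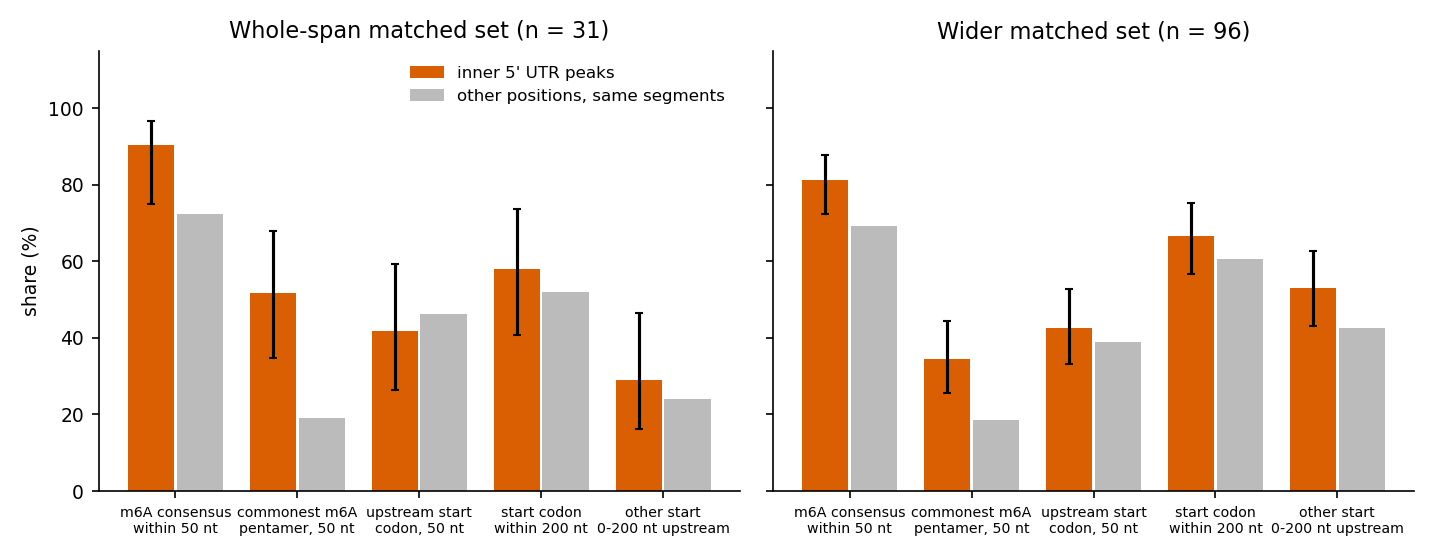
Bars give the share (y axis, %) of inner 5' UTR peaks, with 95% Wilson intervals, and of all other positions of the same 5' UTR segments, for the consensus RRACH, the pentamer GGACU, an upstream AUG, the start codon and the annotated start of another transcript of the gene. The 2 sets differ most from their segments at GGACU (51.6% against 19.0% and 34.4% against 18.6%).

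Upstream AUGs, which can open short reading frames ahead of the main one, were common in these leaders. Of the 28 transcripts of the whole-span set, 27 had at least 1, and of the 90 of the wider set 75 had. The share expected from leader length alone was not computed. Near the peaks they were about as frequent as elsewhere in the segments. Of the peaks, 13 of 31 peaks had one within 50 nt (41.9%, 26.4 to 59.2%), against 46.3% of other positions, and 41 of 96 in the wider set (42.7%, 33.3 to 52.7%), against 38.8%. The leader of SLC35A4, a nucleotide sugar transporter family member whose 5' UTR carries an upstream reading frame, held 11 AUGs and 2 peaks, at positions 276 (score 3.02) and 544 (2.92), with RRACH 1 and 4 nt away. The first of these was the 1 peak of 31 that fell in the annotated coding sequence of another transcript of its gene. The background was 2.51% of positions.

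Peaks lay ahead of the start codon at all distances. The median distance was 163 nt in the whole-span set (range 1 to 1206 nt) and 122 nt in the wider set. Within 200 nt of the start codon lay 18 of 31 peaks (58.1%, 40.8 to 73.6%), against 51.9% of the other positions, and 64 of 96 (66.7%, 56.8 to 75.3%), against 60.5%. Neither share differed from its segment beyond the counting interval. DDX3X, an RNA helicase that helps initiation on structured leaders, had its peak 32 nt before the start codon (position 824, score 4.90), and EPRS, a tRNA synthetase, 25 nt (position 246, 3.46). At the other end, MORC2, a silencing ATPase, had one 1140 nt before it (position 225, 4.91), and KIAA1826 1206 nt (position 211, 3.88).

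**Figure D3:**
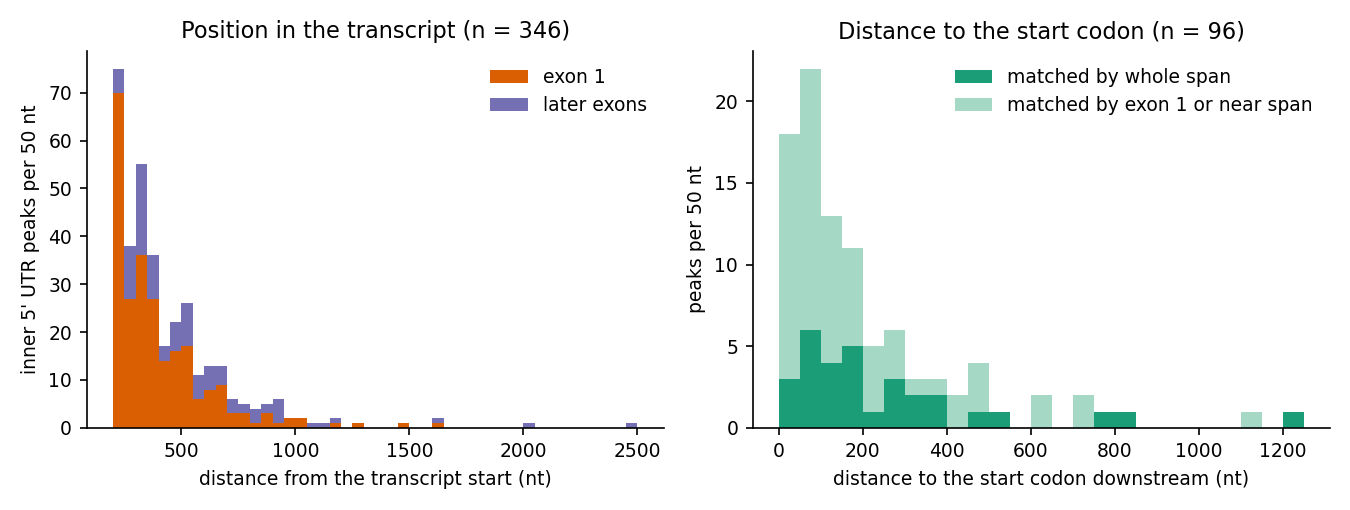
The left histogram counts all 346 inner 5' UTR peaks per 50 nt of distance from the transcript start (x axis, nt), by exon, and the right one counts the 96 matched peaks by distance to the start codon (x axis, nt), by kind of match. The bin from 200 to under 250 nt holds 75 peaks, 70 of them in exon 1, and counts thin out to a last peak at 2453 nt.

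The median position was 354.5 nt (quartiles 260.25 and 533.75, maximum 2453). There were 75 peaks from 200 to under 250 nt, 38 from there to under 300 nt and 55 to under 350 nt. On the other side of the limit, the transcript start had 875 peaks from 50 to under 100 nt, 504 to under 150 nt and 173 to under 200 nt. The limit belongs to the rule, and values on its 2 sides are given as a description. Peaks of all segments, coding sequence included, numbered 173 in the last 50 nt before the limit and 142, 131, 132 and 150 in the 4 bins of that width after it, and of the 142 only 75 were members. The 5 members at exactly 200 nt scored 2.74 to 3.68. They were ITGB8, an integrin subunit (3.68), KIAA1303, now RPTOR, of the mTOR complex (3.20), the glycolytic enzyme PKM2 (3.03), progranulin GRN (2.91) and the segregase VCP (2.74). The 4 peaks 1 nt short of the limit, in USP32, SSBP4, PCDHB11 and NUP98, scored 2.07 to 2.55.

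The peaks farthest from the start were in LOC285908 (2453 nt, score 2.41, exon 5), NBPF16 (2007 nt, 3.64, exon 16), BRD2 (1642 nt, 3.03, exon 2), HEXIM1 (1602 nt, 4.54, exon 1) and CSGLCA-T (1467 nt, 2.11, exon 1). HEXIM1 inhibits the elongation kinase P-TEFb, and CSGLCA-T makes chondroitin. The table describes LOC285908 and NBPF16 as hypothetical proteins, and whether these transcripts are translated was not tested. NBPF16 belongs to a family of near-identical copies, so its reads may be split or shared between genes. Only 12 of 346 members lay at 1000 nt or beyond.

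Exon 1 held 249 of the 346 peaks (72.0%, 67.0 to 76.4%), exon 2 held 70 (20.2%) and later exons 27 (7.80%). Peaks at the transcript start were in exon 1 more often (87.0%, 85.3 to 88.6%) and coding sequence peaks seldom (12.5%, 11.6 to 13.5%). The exons that carried members were long, with a median of 734 nt. Of the members, 280 lay in exons of 400 nt or more (80.9%, 76.5 to 84.7%), against 91.4% of coding sequence peaks and 19.5% of start peaks. Exon 1 members need an exon of at least 200 nt by the rule, but members in later exons do not, and 78 of those 97 (80.4%) lay in exons of 400 nt or more. Only 10 of the 97 lay in exons under 200 nt, such as those of S100A6 (159 nt), a calcium-binding protein, and ASS1 (62 nt), a urea cycle enzyme.

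Scores of members lay between those at the transcript start and those in the coding sequence. The median was 2.99 (order-statistic 95% interval 2.89 to 3.11, range 2.00 to 6.01), against 2.73 at the start (2.69 to 2.77), 3.14 in the coding sequence (3.10 to 3.18), 3.45 near stop codons (3.39 to 3.50) and 3.22 for 3' UTR peaks (3.16 to 3.27). The interval of members met neither that of the start nor, at the other side, that of the stop codon and 3' UTR, and touched that of the coding sequence at 3.10 to 3.11. The score is the authors' own and its scale is not stated, so no fold is taken from it. Of the members, 152 (43.9%, 38.8 to 49.2%) were above the median of all peaks, 3.15.

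Members in exon 2 had a higher median score than those in exon 1, with intervals that do not meet. Their median was 3.44 (3.17 to 3.87), against 2.87 in exon 1 (2.68 to 3.03) and 2.97 in exon 3 or later (2.74 to 3.51). Split by expression, later exons together had 3.30 against 2.90 in exon 1 under a quantile of 0.8 (n = 54 and n = 90 peaks) and 3.22 against 2.81 at 0.8 and over (n = 43 and n = 159). Among members at 300 nt or beyond the medians were 3.25 and 2.84. The order was the same in each of these splits, but the intervals overlapped slightly within each of them. Without a split, later exons together had 3.25 (3.02 to 3.51), an interval that slightly overlaps that of exon 1. Of the 15 highest-scoring transcripts, 10 had their peak in exon 2 or later, and 5 in exon 1. They were picked by the same score, so this count restates the difference and adds no support to it.

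**Figure D4:**
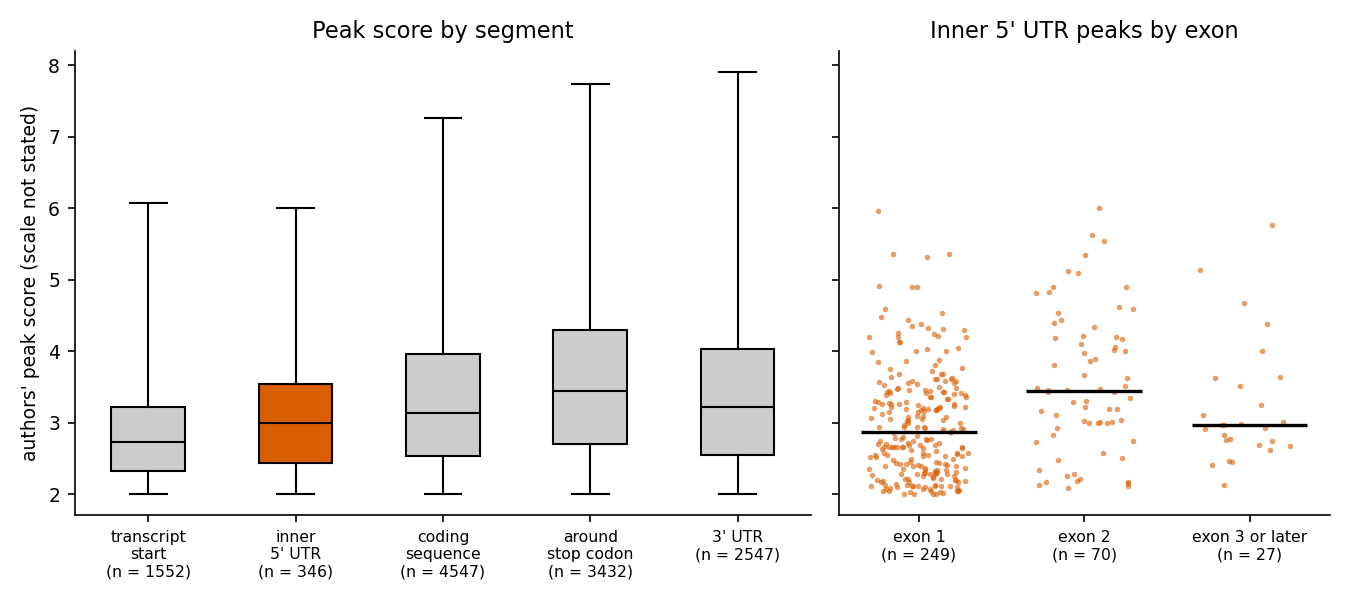
Left, boxes give the quartiles and median of the authors' peak score (y axis, scale not stated) in each segment, with whiskers to the lowest and highest peak; right, each point is an inner 5' UTR peak by exon, with the median as a line. Inner 5' UTR peaks (median 2.99) sit between start peaks (2.73) and coding sequence peaks (3.14), and exon 2 (3.44) above exon 1 (2.87).

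The highest-scoring member was MBNL2, a muscleblind splicing regulator on chromosome 13 (position 611, exon 2 of 778 nt, score 6.01), whose transcript had no other peak. PNMA1, a paraneoplastic antigen, followed with 5.96 (position 611 of a 2643 nt exon 1), then C4orf30. DDX6, the helicase of mRNA decay and P-bodies, scored 5.63 at position 249 in exon 2. SLC5A3, the myo-inositol transporter, scored 5.54 at position 455 in an exon of 11400 nt. RBBP6, a ubiquitin ligase that binds the retinoblastoma protein, had 5.36 at position 685. These transcripts ranged from 0.654 (SLC5A3) to 0.920 (PNMA1) in expression quantile, all below 0.98.

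Next came FOSB, an AP-1 subunit (5.36, position 457), and ST3GAL2. TBC1D10B, a GTPase-activating protein of Rab proteins, had 5.32 in the longer of its 2 listed transcripts, and SIPA1L3, of the Rap GTPase-activating family, 5.13. RARA, the retinoic acid receptor alpha, scored 5.10 at position 375 in exon 2, and C1orf212, a hypothetical protein in the table, 5.12. MORC2, MAN1A1, a Golgi mannosidase (4.91), and FEM1C, a substrate receptor of a ubiquitin ligase (4.90), closed the 15. Of the 15, MBNL2 and C1orf212 had no peak in any other segment, and FEM1C had 4 others.

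Most transcripts had a single inner 5' UTR peak (300 of 322), 20 had 2 and 2 had 3. HSF4, a heat shock transcription factor, had 3, at positions 383 (score 4.24), 896 (2.58) and 1061 (2.22), the last in exon 2. SYNC, an intermediate filament protein, had 3 in its exon 2 of 1180 nt, at 337 (3.67), 573 (2.17) and 919 (2.34). In both, the peak nearest the start had the highest score. In HEXIM1 the order was the other way, with 3.00 at 1268 nt and 4.54 at 1602 nt. CRY1, a repressor of the circadian clock, had 2.92 at 349 nt and 2.29 at 619 nt, and BMPR2, a receptor of bone morphogenetic proteins, 2.26 at 398 nt and 2.77 at 904 nt. The other transcripts with 2 were those of AGPAT6, BC160930, C17orf49, C1orf66, CDC42EP3, CENPN, EXTL3, KIAA0494, LOC285908, SLC35A4, ST3GAL2, TBCB, TLE3, TRIP11, TSR1, ZDHHC5 and ZNF689, with scores from 2.00 (CENPN) to 5.34 (ST3GAL2).

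In 110 of the 322 transcripts (34.2%, 29.2 to 39.5%) all peaks were in the inner 5' UTR. The other 212 had peaks elsewhere too, and among these 24 had a start peak (11.3%, 7.73 to 16.3%), against 1527 of 6668 coding transcripts with peaks but no inner 5' UTR peak (22.9%, 21.9 to 23.9%). A coding sequence peak was present in 102 (48.1%, 41.5 to 54.8%), against 40.0%. A stop codon peak was present in 103 (48.6%), against 48.2%. The inner 5' UTR peak was the highest of the transcript in 66 of the 212 (31.1%, 25.3 to 37.7%). Set against the top coding sequence peak of the same transcript it was higher in 32 of 102, with a median difference (inner 5' UTR minus coding sequence) of -0.44. Against the top start peak it was higher in 12 of 24, with a median difference of 0.16. These comparisons take the highest peak of a segment, which favours segments with several peaks in a transcript. Only 1 inner 5' UTR peak was present in 300 of the 322 transcripts, and the number of peaks was not allowed for.

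The share of inner 5' UTR peaks was higher in more expressed transcripts, over a narrower range than that of start peaks; this difference was not tested. Of the peaks of coding transcripts, 1.39% were members under a quantile of 0.6 (0.815 to 2.37%), 2.25% at 0.6 to 0.7, 2.84% at 0.7 to 0.8, 3.01% at 0.8 to 0.9, 3.20% at 0.9 to 0.98 and 3.74% at 0.98 and over (2.35 to 5.91%). Intervals of neighbouring bins overlapped throughout, and those of the lowest and highest bin met at 2.35 to 2.37%. Start peaks went from 3.32% to 34.4% over the same bins. The median quantile of members was 0.831, between 0.887 for start peaks and 0.762 for coding sequence peaks.

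**Figure D5:**
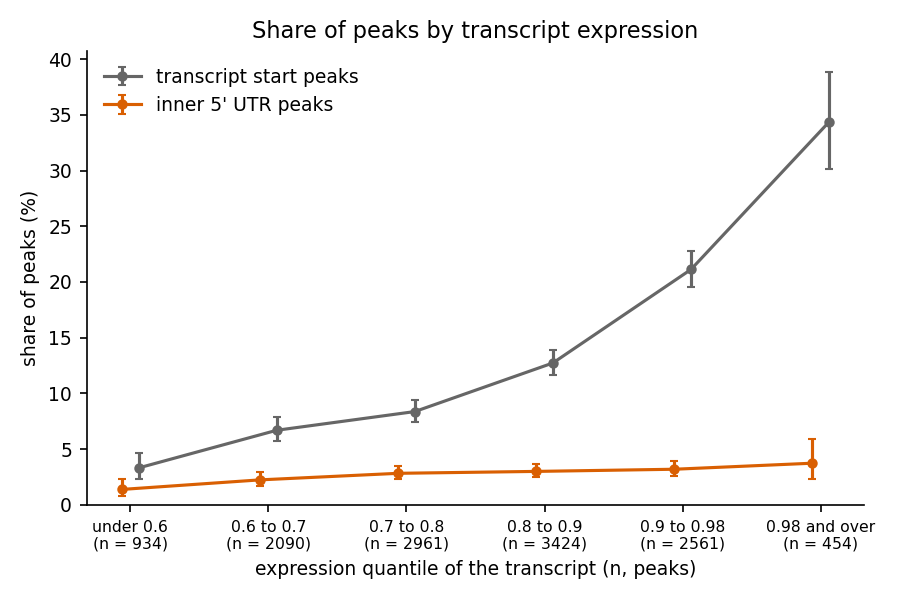
Points give the share of peaks (y axis, %) that lay in the inner 5' UTR or at the transcript start, with 95% Wilson intervals, by expression quantile of the coding transcript (x axis, n = number of peaks). Start peaks climb from 3.32% to 34.4%, while inner 5' UTR peaks stay between 1.39% and 3.74%.

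Other annotated starts lay close upstream of many members. In the wider set, 51 of 96 peaks (53.1%, 43.2 to 62.8%) had the annotated start of another GENCODE transcript of the gene 0 to 200 nt upstream, against 42.5% of the other positions of the same segments. The excess was in the nearest 100 nt (47.9%, 38.2 to 57.8%, against 32.2%). Under 50 nt the share was 28.1% (20.1 to 37.8%) against 20.8%, which lies inside that interval. From 50 to under 100 nt it was 36.5% (27.5 to 46.4%) against 20.4%. It was 10.4% against 15.7% from 100 to under 150 nt, and 8.33% against 10.7% from there to 200 nt. In the whole-span set the shares were 9 of 31 within 200 nt (29.0%, 16.1 to 46.6%) against 24.1%, and 16.1% against 10.5% at 50 to under 100 nt, neither beyond its interval.

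Peaks with such a start upstream had RRACH within 50 nt in 37 of 51 cases (72.5%) in the wider set, and those without it in 41 of 45 (91.1%). In the whole-span set the counts were 8 of 9 (88.9%) and 20 of 22 (90.9%). No interval was computed for these shares, and their difference was not tested. The SLC1A3 peak, which has no RRACH within 50 nt, is counted for both of its transcripts in the wider set. Members without RRACH and with another start upstream included PLEKHB2, a pleckstrin homology domain protein (score 4.60, nearest RRACH 72 nt away), MRC2, a collagen-binding receptor (4.03, 153 nt), RIOK3, a kinase (3.80, 134 nt), and TPM2, a tropomyosin (3.42, 57 nt). Median scores with and without RRACH were 3.02 (n = 78) and 3.28 (n = 18) in the wider set, and 2.95 (n = 28) and 2.86 (n = 3) in the whole-span set. Peaks with such a start upstream belonged to more expressed transcripts (median quantile 0.890 against 0.789 in the wider set), and the part of expression in these shares was not tested.

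The median share of G and C in windows of 101 nt was 61.4% around members of the whole-span set and 65.8% in the wider set (quartiles 58.2 and 71.3%). Start peaks had 67.3% (quartiles 61.4 and 74.3% in the whole-span matching) and coding sequence peaks 56.4%, so members of the wider set lay close to start peaks. The members' own 5' UTR segments had medians of 58.5% and 65.4% in the 2 sets. Their leaders were long, with a median of 630 nt in the whole-span set, and the rule asks for over 200 nt.

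Of 6954 coding genes with any peak, 4.60% had an inner 5' UTR peak, and 1.64% of all 19537 coding genes listed had one. The 14 gene lists are read against these shares. None of them had a share whose interval left out 4.60%. Of 32 immediate early genes with a peak, 2 were members (6.25%, 1.73 to 20.1%). They were FOSB and JUN, both AP-1 subunits, JUN with 2.37 at position 1041 of an exon 1 of 3323 nt. Of 17 genes of the integrated stress response and related translational control, 2 were (11.8%, 3.29 to 34.3%), SLC35A4 and PPP1R15B, a phosphatase subunit that restores translation by acting on eIF2 (2.42, position 344).

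Of 39 genes of TGF-beta, Wnt and Notch signalling with a peak, 3 were members (7.69%, 2.65 to 20.3%). TGFB1, the ligand, scored 4.20 at position 373, 495 nt before its start codon. JAG2, a Notch ligand, scored 3.51 at position 1156, in exon 7 of a transcript listed as an mRNA record. That transcript was not matched to a reference, so whether the exon is coding in other JAG2 transcripts was not tested. BMPR2 has been described. Of 47 chromatin modifiers 2 were (4.26%), JARID1A, now KDM5A, a histone demethylase (3.65, position 251), and BRD2. Single members came from growth factor signalling (PIK3R2, a PI3K regulatory subunit, 3.19, of 28 genes), the cell cycle (CDC25B, a phosphatase that activates cyclin-dependent kinases, 3.38, of 30), hypoxia genes (SLC2A1, the glucose transporter GLUT1, 2.68, of 16) and initiation factors (EIF5, 2.11, of 19).

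No member was found among 24 heat shock proteins and chaperones with a peak, which allows a share of up to 12.5% (3 counts of the total, in place of an interval). The same held for the 29 listed SR, hnRNP and RBM proteins (up to 10.3%), 16 KLF and SP factors and 16 genes of the m6A machinery (up to 18.8% each), 8 cytosolic ribosomal proteins (up to 37.5%) and the 1 hepatocyte marker with a peak. All of these limits lie above 4.60%, so a lack of inner 5' UTR peaks in these lists was not detectable at these numbers. The SR, hnRNP and RBM list does not hold every gene of these families. HNRPDL, an hnRNP D-like protein (3.55), and RBM34, an RNA-binding motif protein (3.46), were members outside that list.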

How the data were processed

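Peaks and expression came from 1 table for 4 m6A-IP and 3 input libraries, grouped by title. Per the file headers, its expression column is a mean quantile, a fraction from 0 to 1, and the deposited peak score, position, exon and segment are the authors' values. The sources used here do not name the aligner, the peak caller or the build; each is not given in the sources used here. Peak columns were split into 1 line per peak with Python 3.11.15 and pandas 2.3.3, and UTR5 peaks were kept. Of 654 transcripts with peaks matched exactly to GENCODE release 29, 0 had the GRCh38 start coordinate. GRCh38 coordinates are therefore printed only for sequences, and other genes by transcript position. Rebuilt segments equalled the authors' for 1233 of 1241 peaks of these transcripts, and for 2070 of 2106 in the wider set; others were left out of sequence comparisons. Older symbols came from RefSeq. Motif backgrounds are every other position of the same segment, enumerated and not sampled. Motif and segment functions were tested on simulated data. Shares have 95% Wilson intervals (counts of 0 a limit of 3 counts) and medians order-statistic intervals (SciPy 1.17.1). No test was made. Named genes are the 15 highest scores, transcripts with 3 peaks (with 2, where fewer than 3 transcripts had 3), the 5 farthest positions, up to 4 members of each list, those next to the 200 nt limit and the 12 highest sites outside chromosome 8, of which 1 is not reported here. Others (SLC1A3, HNRPDL, RBM34, matched peaks with or without RRACH, strongly expressed members and exon examples) were chosen after their values were seen. Members and lists were chosen with earlier results of these data known. Alternatives varied score, expression, window, motif, match and isoforms.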

Additional observations from a re-analysis of the deposited data

How the results depend on the processing

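The share of inner 5' UTR peaks was 2.44% among peaks scoring above 3.15 and 3.28% above an expression quantile of 0.9, against 2.78%. Above the median score, exon 1 held 65.1% of members and 3.26% of genes with a peak had one. RRACH was near 67.7% of whole-span peaks within 25 nt, against 47.7% of the other positions of their segments. Within 100 nt it was near 96.8% (83.8 to 99.4%), against 91.6%, which lies inside that interval. The start codon was within 100 nt of 29.0% and within 400 nt of 83.9%, as wider windows must hold more. Another start 0 to 200 nt upstream went from 29.0% to 53.1% in the wider set; the cause was not tested. The other alternatives, 1 transcript per gene and the highest-scoring peak of each transcript among them, moved values by less than their intervals. Whole-span matches cover 31 of 346 members, and the authors' threshold (no score under 2.00) and fragments of about 100 nt limit what the table can show. No paired analysis was possible because the table has no column for a single library, and no replicate could be left out for the same reason.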

Other observations

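Among coding transcripts with a peak at an expression quantile of 0.98 and over, 17 of 305 carried an inner 5' UTR peak (5.57%, 3.51 to 8.74%), an interval that holds the 4.60% of all coding genes with a peak. Their median score was 3.43, against 2.89 for coding sequence peaks at that expression. In the other 5 expression bins, from low to high, the order was the reverse, with 2.87 against 3.55, 3.11 against 3.19, 2.95 against 3.14, 2.81 against 3.03 and 2.90 against 2.96, so the top bin of 17 peaks stands alone and was not tested. The highest of the 17 was TARS, a tRNA synthetase (4.32, position 245), followed by ASS1, a urea cycle enzyme (4.18, position 339), the splicing factor U2AF2 (position 652) and S100A6 (3.81, position 314). SNRNP70, a core U1 snRNP protein (3.49, position 333), MCM7, a replicative helicase subunit (3.43, position 479), the actin-severing protein CFL1 (3.58, position 527) and the linker histone H1F0 (3.33, position 208) were also among them. The lowest of the 17 was GRN at 2.91, close to the median score of transcript start peaks at that expression (2.88).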
